A study of Mus musculus with 12 samples.

Results

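A set of 10 genes of apoptotic cell clearance were followed across the 4 groups of a study of macrophages from mice that differ in genotype and diet. They were taken by gene symbol: the receptors Mertk and Axl, the bridging proteins Gas6, Pros1 and Mfge8, the engulfment genes Elmo1, Dock1, Dock2 and Gulp1, and the scramblase gene Xkr8. The table holds rows for 9 of the 10, out of 12339 genes in all. All 9 passed the filter on low counts, as did every other gene of the table. Gulp1 was not analysed here. The files give them Entrez identifiers, and RefSeq on GRCm38.p6 places Mertk (17289) on chromosome 2, Axl (26362), Mfge8 (17304) and Dock1 (330662) on chromosome 7, and Gas6 (14456) on chromosome 8. Pros1 (19128) lies on chromosome 16, Elmo1 (140580) on chromosome 13, Dock2 (94176) on chromosome 11 and Xkr8 (381560) on chromosome 4.

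The 4 groups were wild type (WT) on chow, WT on a high-fat diet (HFD), meKO on chow and meKO on HFD, with 3 RNA-seq libraries each and 12 in all. The series title names protein kinase C epsilon in myeloid cells, so meKO was read as the myeloid knockout of Prkce; the labels do not name the Cre line. Mice of every group, the chow groups too, received AAV8PCSK9 at 8 weeks of age, a vector meant to take the LDL receptor off hepatocytes, so no group is an untreated mouse. After 4 weeks, macrophages were drawn into the peritoneum with sterile thioglycolate and washed out, so these are elicited cells and not macrophages of an artery wall. The labels give 8 injected mice per genotype, with 4 per genotype on HFD, and do not say whether each library came from a separate mouse. The p-values measure the spread between these libraries, which may be partly technical.

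Dying cells expose phosphatidylserine on their outer membrane, where scramblases such as Xkr8 carry it. TAM receptors (Tyro3, Axl and Mertk) are tyrosine kinases that bind it through the bridging proteins Gas6 and Pros1; Mertk binds both and Axl binds Gas6. Mfge8 bridges phosphatidylserine to αv integrins. Downstream, Elmo1 with Dock1 or Dock2 forms an exchange factor that turns on the GTPase Rac1, which drives the actin cup around the corpse. Mertk is known as a main clearance receptor of macrophages and Axl as one induced by inflammatory signals. In atherosclerosis research the process is followed because uncleared foam cells add to the necrotic core.

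The promoters of the 5 members on which the diet results turn are printed first: those of the 4 that were lower on HFD, then that of Axl, whose fitted change pointed the other way. Each is the 250 bases before the start site that RefSeq gives on GRCm38.p6, read 5′ to 3′ on the gene's strand, with each GC box (GGGCGG, either strand) in capitals. They lie at chr2:128698665-128698914 on the plus strand (Mertk), chr8:13494536-13494785 on the minus strand (Gas6), chr13:20090257-20090506 on the plus strand (Elmo1, the first of 2 listed starts), chr7:134670437-134670686 on the plus strand (Dock1) and chr7:25788734-25788983 on the minus strand (Axl). The RefSeq span of the Axl gene reaches 25788924, so most of the Axl stretch lies inside that span. The last 20 bases of the Dock1 and Axl stretches lie inside a transcript of the same gene.
Mertk: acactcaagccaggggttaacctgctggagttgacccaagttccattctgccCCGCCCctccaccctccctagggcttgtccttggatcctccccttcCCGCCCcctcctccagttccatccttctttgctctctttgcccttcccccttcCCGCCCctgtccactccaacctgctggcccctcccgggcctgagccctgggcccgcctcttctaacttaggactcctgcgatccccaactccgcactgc
Gas6: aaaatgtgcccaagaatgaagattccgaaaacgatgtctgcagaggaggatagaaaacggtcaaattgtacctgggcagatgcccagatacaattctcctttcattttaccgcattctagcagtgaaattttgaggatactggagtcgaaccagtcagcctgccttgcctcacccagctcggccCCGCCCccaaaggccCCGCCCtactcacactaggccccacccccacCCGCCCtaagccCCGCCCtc
Elmo1: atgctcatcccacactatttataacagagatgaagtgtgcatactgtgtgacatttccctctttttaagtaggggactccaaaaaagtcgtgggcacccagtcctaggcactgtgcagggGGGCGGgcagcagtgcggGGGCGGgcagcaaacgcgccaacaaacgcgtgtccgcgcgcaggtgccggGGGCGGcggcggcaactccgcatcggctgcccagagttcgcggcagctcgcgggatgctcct
Dock1: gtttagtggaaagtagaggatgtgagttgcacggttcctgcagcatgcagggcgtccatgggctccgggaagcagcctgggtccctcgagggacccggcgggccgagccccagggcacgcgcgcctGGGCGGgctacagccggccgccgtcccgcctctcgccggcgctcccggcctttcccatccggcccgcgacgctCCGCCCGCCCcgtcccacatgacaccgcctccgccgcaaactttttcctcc
Axl: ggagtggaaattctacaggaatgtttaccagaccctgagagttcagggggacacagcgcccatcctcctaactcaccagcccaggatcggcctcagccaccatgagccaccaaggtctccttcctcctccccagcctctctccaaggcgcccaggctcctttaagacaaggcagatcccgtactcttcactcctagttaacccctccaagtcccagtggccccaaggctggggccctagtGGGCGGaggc

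RefSeq promoters were found for 8 of the 9 measured members, 9 promoters in all. A GC box, the site of Sp-family factors, was present in 7 of the 9, against 32.7% of 32851 promoters of the same length. It occurred 4 times in the Gas6 promoter, 3 times each in those of Mertk, Elmo1 and Dock1, and 1 time in that of Axl. Dock2 and the second Elmo1 start had 0, and these 2 promoters were the lowest in GC (52.8% and 43.6%). The share over all promoters was not matched for GC content. The other 6 motifs, chosen after the promoters had been read, were searched on both strands and 0 of the 9 promoters held any of them. These were AP-1 (TGANTCA, 6.75% of promoters), the E-box (CACGTG, 6.02%), the ISRE core (2.98%), an ETS site with a PU.1 flank (GAGGAAGT, 2.44%), the CRE (TGACGTCA, 1.55%) and an LXR direct repeat (0.0152%). Member promoters ranged from 43.6% to 71.6% GC, and a match is a description of the letters only.

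Library totals ran from 25844958 to 37282772 counts, and each member had at least 121 counts in each library. Values are CPM, counts scaled to library size with TMM factors. Prkce averaged 3.69 ± 1.16 CPM in WT against 1.33 ± 0.346 in meKO on chow, and 2.48 ± 0.445 against 1.41 ± 0.419 on HFD (SD, n = 3), with each meKO library below each WT library of its diet. In the model across genes this genotype difference did not pass on either diet, with an edgeR adjusted p of 0.0794 for chow and 0.989 for HFD. WT chow replicates 1 and 2 stood apart: across genes, their deviation from the mean followed transcript length with Spearman's rho of 0.61 and 0.65, against -0.44 to 0.12 in the other 10 libraries. Member transcripts range from 2330 bases (Mfge8) to 6807 (Dock1), against a median of 3368 over genes. The diet results that rest on these libraries are therefore also given after a correction for length and GC content and without both. For genotype on chow and the interaction this was done in part.

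All 10 macrophage markers were measured, but Lyz2, the highest of them, was at 69.3 CPM in meKO chow replicate 2 against 16293 to 21310 in the other meKO libraries and 30482 to 53835 in WT. That library was also the highest of its group in Gas6 and the lowest in Pros1 and Axl. Per kilobase of transcript, Mfge8 had the highest level of the members (345 ± 94.1 CPM per kb, SD, n = 12). It was followed by Dock2 (46.9 ± 11.2), Pros1 (32.4 ± 9.17), Mertk (19.5 ± 4.75), Gas6 (17.1 ± 8.75), Elmo1 (7.30 ± 2.15), Axl (7.07 ± 1.86), Dock1 (4.47 ± 1.43) and Xkr8 (1.15 ± 0.177). Between neighbours in this order the ranges over libraries overlapped, except that Mfge8 lay above Dock2 and Dock1 above Xkr8 in all 12 libraries without overlap. On this scale the level of Mfge8 was above that of 98.7% of genes and that of Xkr8 above 18.9%.

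**Figure D1:**
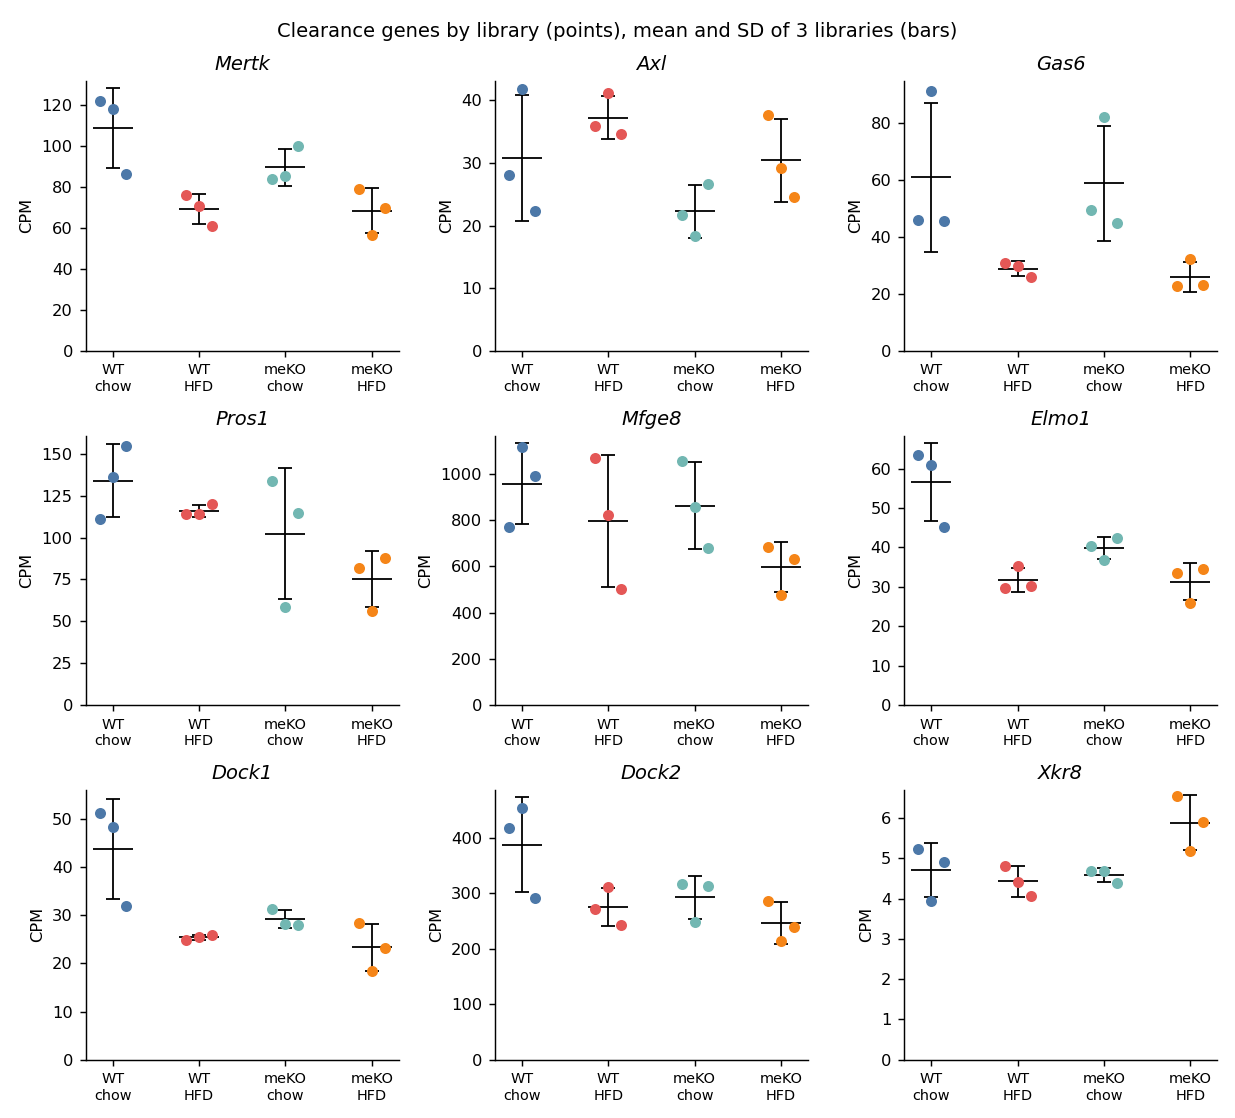
CPM (y axes, linear from 0) of the 9 measured members in each of the 12 libraries, by group (x axes); points are libraries, bars the mean and SD of 3. In WT, the HFD points of Mertk, Gas6, Elmo1 and Dock1 lie below all chow points, and those of Mertk, Gas6 and Elmo1 also do so in meKO.

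Mertk RNA was lower on HFD. In WT chow it stood at 122, 118 and 86.4 CPM in replicates 1 to 3, and in WT HFD at 75.9, 70.8 and 61.1. All 3 HFD libraries lay below all 3 chow libraries, and Mertk fell by 36.3% (log2 fold change -0.65 ± 0.15, SE; edgeR quasi-likelihood test, Benjamini-Hochberg adjusted p = 0.0183). In meKO the values were 83.8, 85.2 and 100.02 CPM on chow and 78.9, 56.7 and 69.9 on HFD. These groups did not overlap either, but the difference did not pass (-0.39 ± 0.15, adjusted p = 0.276). In bulk RNA, fewer cells of a type and less RNA per cell cannot be told apart.

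Axl, the other TAM receptor measured, did not pass in either genotype, and its fitted change was above 0 in both. It had 28.1, 41.9 and 22.2 CPM in WT chow and 35.8, 41.1 and 34.7 in WT HFD (0.28 ± 0.22, adjusted p = 0.355). In meKO it had 21.7, 18.3 and 26.7 CPM on chow and 37.6, 29.1 and 24.6 on HFD (0.46 ± 0.22, adjusted p = 0.323). The groups overlapped within each genotype. With the length and GC correction, Axl was higher on HFD in WT (0.58 ± 0.18, edgeR adjusted p = 0.0477) and averaged over genotypes (0.57 ± 0.12, adjusted p = 0.0100). Under that correction 7.49% of all genes were called higher in WT and 12.3% averaged.

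Because the 2 receptors have transcripts of nearly the same length (4265 bases for Axl, 4302 for Mertk), their ratio within a library was also read; this ratio was chosen after the values were seen and has no test. Axl to Mertk was 0.230, 0.355 and 0.258 in WT chow and 0.472, 0.581 and 0.567 in WT HFD. For meKO it was 0.259, 0.215 and 0.267 with chow and 0.477, 0.513 and 0.352 with HFD. Within each genotype every HFD library was above every chow library, although the lowest meKO HFD value lay just below the highest WT chow value. Mertk remained the more abundant of the pair in all 12 libraries. Tyro3, the third TAM receptor, was not analysed here.

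**Figure D2:**
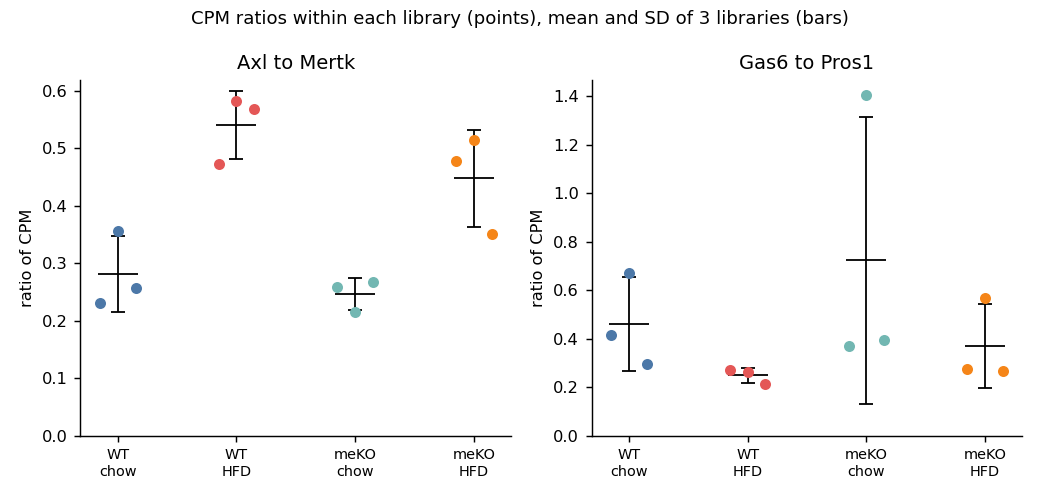
Ratio of CPM within each library (y axes, linear from 0) for Axl to Mertk and Gas6 to Pros1, by group (x axes); points are libraries, bars the mean and SD of 3. Axl to Mertk averages 0.281 and 0.247 in the chow groups of WT and meKO and 0.540 and 0.447 in the HFD groups, while the Gas6 to Pros1 point at 1.40 is meKO chow replicate 2.

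Gas6, the ligand shared by Axl and Mertk, had the largest fitted diet difference of the 9 members in both genotypes. It stood at 46.1, 91.3 and 45.6 CPM in WT chow and at 30.8, 29.7 and 25.8 in WT HFD. It fell by 52.8% in WT (-1.08 ± 0.27, edgeR adjusted p = 0.0218). In meKO it had 49.6, 82.2 and 45.0 CPM on chow and 22.7, 32.2 and 23.3 on HFD. The meKO difference was as large (-1.18 ± 0.28) and its groups did not overlap, but it did not pass (adjusted p = 0.123). DESeq2 called it (adjusted p = 0.00411), as did limma-voom with library quality weights (0.0331). Gas6 had a single high library in each chow group, and leaving out WT chow replicate 2 moved the WT value to -0.66 (adjusted p = 0.0968). Of its 2548 exon bases, 34 lie opposite exons of Tmem255b, and the strand setting of the counting is not given in the sources used here.

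Pros1, the other TAM ligand, and Mfge8 did not pass in any edgeR comparison fitted to all 12 libraries. Pros1 had 111, 136 and 155 CPM in WT chow, 114, 114 and 120.2 in WT HFD, and in meKO 134, 58.5 and 115 with chow against 82.1, 56.5 and 87.5 with HFD. The diet groups overlapped in both genotypes (-0.21 ± 0.24, edgeR adjusted p = 0.544, in WT, and -0.44 ± 0.24, adjusted p = 0.373, in meKO). On HFD, the 3 meKO values of Pros1 lay below the 3 WT values (-0.62 ± 0.24, adjusted p = 0.978). Mfge8 had 769, 1114 and 990.1 CPM in WT chow, 1067, 822 and 501 in WT HFD, and in meKO 1055, 855 and 678 with chow against 682, 475 and 631 with HFD. Its libraries spread widely within groups, and the diet difference was -0.27 ± 0.24 in WT (adjusted p = 0.432) and -0.53 ± 0.24 in meKO (adjusted p = 0.306). The Gas6 to Pros1 ratio averaged 0.460 ± 0.192 (SD, n = 3) in WT on chow against 0.249 ± 0.0296 on HFD, and 0.722 ± 0.590 against 0.371 ± 0.172 in meKO. The meKO ratios overlapped. Without meKO chow replicate 2, the library low in Lyz2, the meKO diet difference was -0.87 ± 0.26 for Gas6 (edgeR adjusted p = 0.201), -0.73 ± 0.18 for Pros1 (0.151) and 0.33 ± 0.24 for Axl (0.494).

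Elmo1 and Dock1 were also lower on HFD in WT. Elmo1, the adaptor that binds Dock proteins, had 63.5, 60.8 and 45.2 CPM in WT chow and 29.8, 35.3 and 30.3 in WT HFD. It fell by 43.7% (-0.83 ± 0.15, edgeR adjusted p = 0.00853), the smallest p of the 9 members in this comparison. Dock1, the exchange factor of the classical engulfment pathway, had 51.2, 48.3 and 31.9 CPM in WT chow and 24.9, 25.4 and 26 in WT HFD. It fell by 41.9% (-0.78 ± 0.18, adjusted p = 0.0157). For both genes the WT diet groups did not overlap.

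Dock2, the blood-cell relative of Dock1, had 419, 454 and 291 CPM in WT chow and 272, 312 and 244 in WT HFD. Here the lowest chow library fell among the HFD libraries, and the difference just missed the threshold (-0.49 ± 0.17, edgeR adjusted p = 0.0527). In meKO, Elmo1 had 40.4, 36.8 and 42.4 CPM on chow and 33.5, 26 and 34.6 on HFD, groups that did not overlap (-0.34 ± 0.15, adjusted p = 0.296). Dock1 had 31.3, 28.2 and 28.0 on chow and 28.3, 18.4 and 23.2 on HFD in meKO (-0.32 ± 0.18, adjusted p = 0.368). Dock2 had 317, 248 and 314 against 287, 214 and 239 (-0.25 ± 0.17, adjusted p = 0.464), and both Dock genes overlapped between diets. Exons of other genes lie opposite 403 of 12580 exon bases of Elmo1 (Gm32036) and 460 of 11425 of Dock2 (4930403D09Rik).

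Xkr8, the caspase-activated scramblase that exposes phosphatidylserine on dying cells, was the least abundant member. It had 5.2, 4.0 and 4.9 CPM in WT chow and 4.8, 4.4 and 4.1 in WT HFD, which overlap (-0.09 ± 0.16, edgeR adjusted p = 0.710). In meKO it had 4.7, 4.7 and 4.4 CPM on chow and 6.6, 5.2 and 5.9 on HFD. All meKO HFD values lay above all meKO chow values and all WT HFD values, but neither difference passed (0.36 ± 0.16, adjusted p = 0.302, for diet, and 0.41 ± 0.16, adjusted p = 0.984, for genotype).

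**Figure D3:**
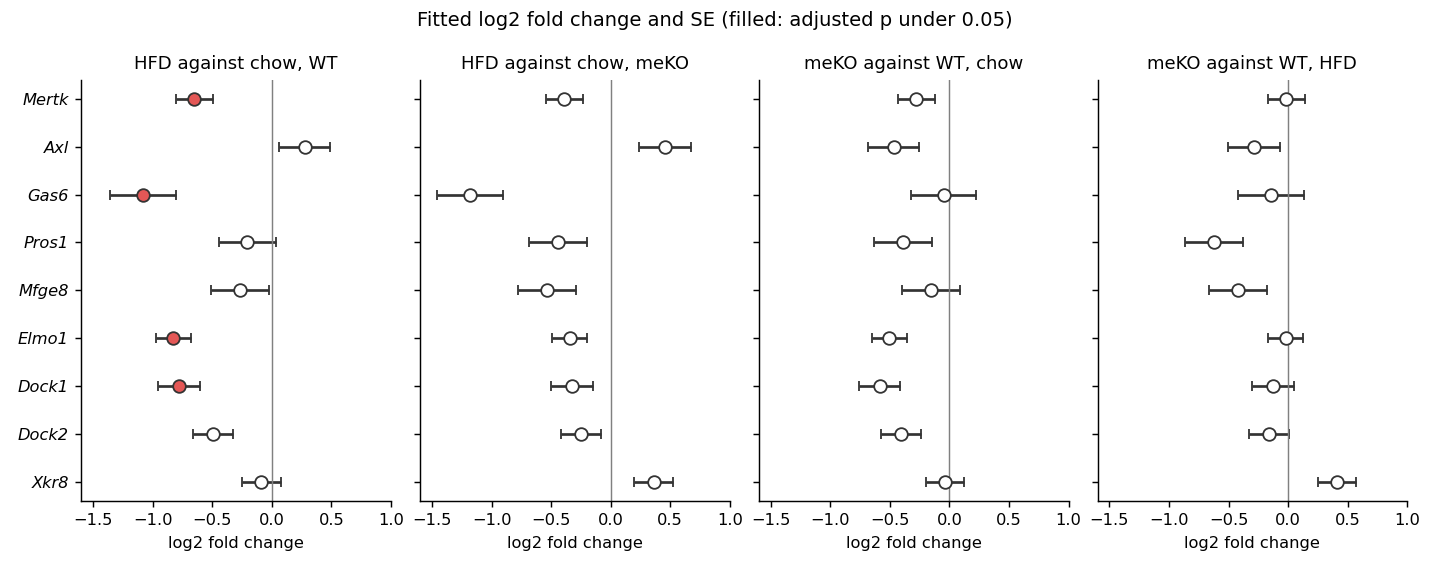
Fitted log2 fold change (x axes) of the 9 members with its SE (bars) in the diet comparison of each genotype and the genotype comparison on each diet; filled points passed an adjusted p of 0.05. The 4 filled points are Mertk, Gas6, Elmo1 and Dock1 in WT, between -1.08 and -0.65.

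In WT, 4 of the 9 members were thus called lower on HFD and 0 higher, while 11.8% of all 12339 genes were called lower and 9.5% higher. Groups without overlap counted 4 members lower and 0 higher, against 19.9% and 19.4% of all genes. Leaving out WT chow replicate 1 alone, or WT HFD replicate 3 alone, gave 0 members called, with 129 and 96 of all genes in place of 2634. Without WT chow replicate 2 it was 1 member, and without WT HFD replicate 1 it was 2. The median log2 fold change was -0.49 over the members and -0.03 over all genes. In meKO edgeR called 0 of the 9, where 0.105% of all genes were called in either direction, and 5 of the 9 had an unadjusted p under 0.05. The share of all genes at that unadjusted cutoff is not given, here or below, so such counts are no result about the members. In meKO DESeq2 called 1 of the 9 and 227 of all genes, and limma-voom 0 and 9. In meKO 3 members were lower without overlap and 1 was higher, against 9.38% and 10.3% of all genes.

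The diet effect was not shown to differ between genotypes. The interaction (diet in meKO minus diet in WT) was called by edgeR for 0 of the 9 members, with 1 at an unadjusted p under 0.05, and for 0.0162% of all genes. DESeq2 and limma-voom also called 0. The member with an unadjusted p under 0.05 was Elmo1 (0.48 ± 0.21, edgeR adjusted p = 0.791), which passed only with library quality weights (0.70, adjusted p = 0.0425). That fit called 295 of all genes. For Gas6 the interaction was -0.10 ± 0.39 and for Mertk 0.26 ± 0.22. Over the alternatives it ran from -0.52 to 0.20 for Gas6, from -0.07 to 0.39 for Mertk and from 0.16 to 0.70 for Elmo1. The median over members was 0.24, and -0.02 with the length and GC correction.

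Averaged over both genotypes, 5 of the 9 members were lower on HFD and 0 higher, against 15.3% and 14.9% of all genes. Gas6 fell by 54.4% (-1.13 ± 0.19, edgeR adjusted p = 0.00434), Elmo1 fell by 33.4% (-0.59 ± 0.10, adjusted p = 0.00461) and Dock1 fell by 31.8% (-0.55 ± 0.12, adjusted p = 0.00947). Mertk fell by 30.2% (-0.52 ± 0.11, adjusted p = 0.00784) and Dock2 fell by 22.6% (-0.37 ± 0.12, adjusted p = 0.0336). Axl (0.37 ± 0.15, adjusted p = 0.0827) and Mfge8 (-0.40 ± 0.17, adjusted p = 0.0913) did not pass. Each of the first 4 passed in 12 of 12 fits that left out a single library, and Dock2 in 4 of 12.

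The WT diet result also rests partly on the pair of chow libraries that stand apart. With the length and GC correction, Mertk (-0.47 ± 0.11, edgeR adjusted p = 0.0241), Elmo1 (-0.56 ± 0.10, adjusted p = 0.0108) and Dock1 (-0.41 ± 0.11, adjusted p = 0.0357) were still called lower in WT. Gas6 was not (-1.01 ± 0.32, adjusted p = 0.063), and 5.58% of all genes were called lower. Without WT chow replicates 1 and 2, a fit that leaves a single WT chow library and assumes that it varies like the others, 0 members and 15 of all genes were called in WT. Mertk then had -0.32 (adjusted p = 0.592), Gas6 -0.66 (0.501), Elmo1 -0.51 (0.374) and Dock1 -0.32 (0.594). In the average over genotypes, the correction kept the calls of Mertk (-0.40), Gas6 (-1.08), Elmo1 (-0.42) and Dock1 (-0.33) and ended that of Dock2 (-0.16, adjusted p = 0.133). Leaving out both libraries kept Gas6 alone (-0.92 ± 0.18, adjusted p = 0.0366).

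**Figure D4:**
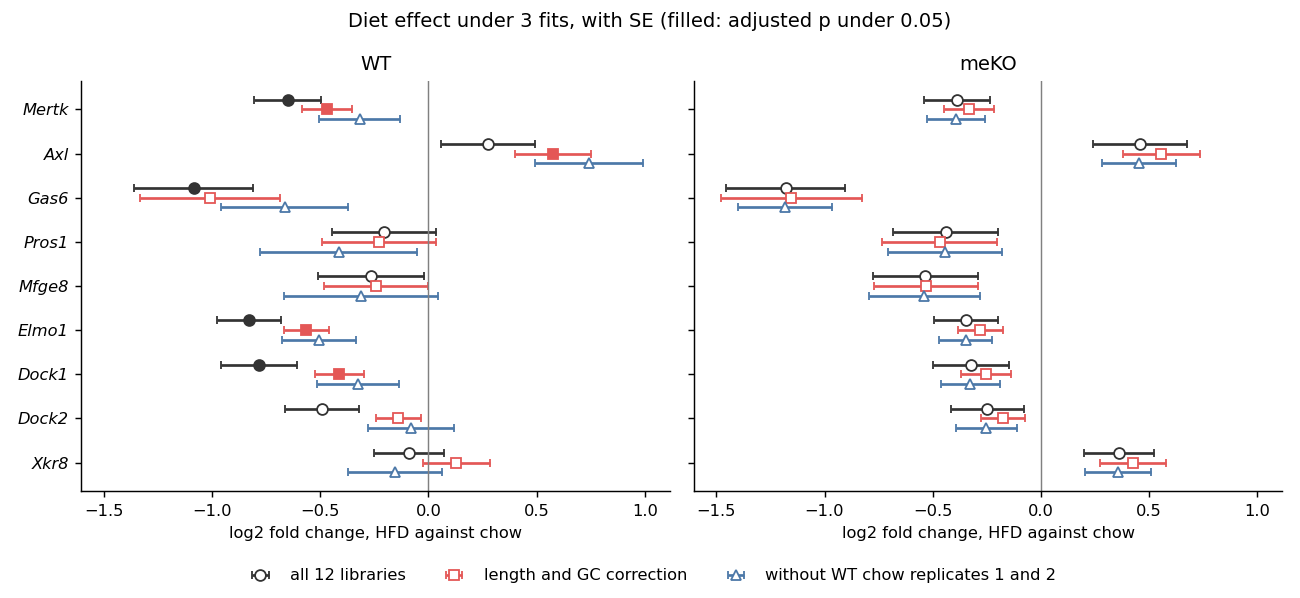
Diet log2 fold change, HFD against chow (x axes), of the 9 members in WT and in meKO under 3 fits, with SE (bars) and filled symbols for an adjusted p under 0.05. In WT, Mertk moves from -0.65 to -0.47 and -0.32, and Axl from 0.28 to 0.58 and 0.74; in meKO the 3 fits lie close together.

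Markers of some other cells moved with diet in WT, and those of others did not. T and NK cell markers summed to 18.9 to 35.1 CPM in WT chow and 22.1 to 31.1 in WT HFD. Eosinophil markers summed to 25.7 to 37.3 and 21.6 to 27.5, and mast cell markers to 226 to 276 and 233 to 248, so all of these overlapped. The summed CPM of 8 measured B cell markers was 204 to 260.2 in WT chow and 118 to 145 in WT HFD, and 10 dendritic cell markers summed to 45.7 to 70.5 and 28.1 to 38.9. In meKO the B cell and dendritic cell sums overlapped between diets. The T and NK cell sums in meKO did not, at 24.6 to 32.1 on chow and 35.1 to 39.7 on HFD. The sum of 7 measured neutrophil markers was 156 to 200.3 in WT chow and 141 to 150.4 in WT HFD. The 10 markers of resident large peritoneal macrophages, mostly Cd5l, summed to 312 to 944 in WT chow and 1125 to 1827 in WT HFD, and to 566 to 1117 and 690.3 to 1642 in meKO. The 14 measured mesothelium and fibroblast markers summed to 53.9 to 95.0 in WT chow and 98.9 to 144 in WT HFD, and to 55.3 to 101 and 117 to 151 in meKO. In WT, the B cell, dendritic cell and neutrophil sums were lower on HFD without overlap, the direction of Mertk, Gas6, Elmo1 and Dock1. The resident macrophage and the mesothelium and fibroblast sums were higher without overlap, the opposite direction, and in meKO the resident macrophage sums overlapped. The resident macrophage sum in WT rests largely on Cd5l, at 155 to 506 CPM on chow and 911 to 1486 on HFD. Only 1 of its 10 markers was called in WT. Others of the list went both ways without a call, with a log2 fold change of 0.43 for Gata6 and -0.65 for Timd4. No marker measured was at 0 in every library, and the part of these cells in the member results was not tested.

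Genotype differences of the members did not pass. The sum of the macrophage markers differed with genotype, and Lyz2 made up most of it except in meKO chow replicate 2. On chow the sum was 37591 to 59974 CPM in WT against 6343 to 27981 in meKO. On HFD it was 36608 to 43656 in WT against 22612 to 24528 in meKO. Lyz2 alone was 31225 to 53835 CPM in WT chow against 69.3 to 21310 in meKO chow. With HFD it was 30482 to 37662 in WT against 16293 to 18865 in meKO. The sum thus mainly reads Lyz2 and is no measure of macrophage content. The part of macrophage content in the genotype values was not tested. On chow, edgeR called 0 of 9 (0.081% of all genes), with 4 at an unadjusted p under 0.05. The 0.081% is the share at the adjusted threshold, and the share at the unadjusted cutoff is not given. DESeq2 called 2 of the 9 and 591 of all genes, limma-voom 0 and 2, and voom with quality weights 5 and 4047. All 9 fitted changes were below 0, with a median of -0.39 against -0.00 over all genes and of -0.19 with the length and GC correction. Elmo1 (-0.50 ± 0.15, edgeR adjusted p = 0.118) and Dock1 (-0.59 ± 0.17, adjusted p = 0.122) were lower in meKO without overlap, as were 8.28% of all genes. Without WT chow replicate 3, edgeR called Elmo1 (adjusted p = 0.00838), Dock1 (0.00523), Dock2 (0.0241) and Axl (0.0453). That fit called 2543 of all 12339 genes, against 10 with all libraries. Its WT chow group held only replicates 1 and 2, the pair that stands apart along transcript length.

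On HFD, edgeR called 0 of 9 between genotypes (0.081% of all genes), with 2 at an unadjusted p under 0.05; DESeq2, limma-voom and voom with quality weights also called 0. These 2 were Pros1 and Xkr8, the members described above whose groups did not overlap, against 4.85% of all genes lower and 5.45% higher. Mertk (-0.02 ± 0.15), Elmo1 (-0.02 ± 0.15) and Dock1 (-0.12 ± 0.18) lay near 0 on HFD. Averaged over diets, edgeR again called 0 of 9 (0.17% of all genes), with 5 at an unadjusted p under 0.05. DESeq2 called 0 of the 9 and 366 of all genes, limma-voom 0 and 20, and voom with quality weights 6 and 3835.

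Of 90 further clearance genes in 8 lists, 82 were measured, and in WT 17 were called higher and 12 lower on HFD, or 35.4% against 21.3% of all genes. By direction, 9.5% of all genes were called higher and 11.8% lower, and with the length and GC correction 7.49% and 5.58%. The correction left 9 and 4, and leaving out both WT chow libraries left 0 and 0. Each list gene named below as called in WT lost its call without WT chow replicate 1 and, separately, without WT HFD replicate 3, and passed in 8 to 10 of 12 fits without a library, except Abca1, which passed in 3. In meKO edgeR called 0 of the 82, with 19 at an unadjusted p under 0.05. DESeq2 called 6 of the 82 and 227 of all genes, limma-voom 0 and 9, and voom with quality weights 7 and 398. Between genotypes edgeR called 0 on either diet, with 21 on chow and 2 on HFD at an unadjusted p under 0.05. These unadjusted counts, and that in meKO, stand without a share over all genes. On chow DESeq2 called 7 of the 82, limma-voom 0 and voom with quality weights 36, against 591, 2 and 4047 of all genes. On HFD these tools called 0, 0 and 2, against 53, 5 and 128 of all genes.

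Among 15 other receptors 3 were higher and 3 lower in WT. Stab1, a scavenger receptor for phosphatidylserine, averaged 143 ± 48.2 CPM in WT chow and 66.7 ± 6.33 in WT HFD (SD, n = 3; log2 fold change -1.10, edgeR adjusted p = 0.0123). Scarb1, the HDL receptor, fell from 47.0 ± 3.17 to 28.3 ± 1.84 (-0.73, adjusted p = 0.0134). Itgav (0.02) and Itgb5 (-0.01), integrin chains that read Mfge8, and Timd4 (-0.65, adjusted p = 0.256) did not pass. Stab1 lost its call under the length and GC correction (adjusted p = 0.0726).

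Bridging molecules other than the members were higher in 3 of 10 and lower in 0, and in 0 and 0 with the length and GC correction. Anxa1, a phospholipid-binding protein linked to the resolution of inflammation, averaged 1958 ± 169 CPM in WT chow and 3255 ± 203 in WT HFD (0.73, edgeR adjusted p = 0.0123; 0.0625 with the correction). C1qa (0.21, adjusted p = 0.496) did not pass. Among 6 do-not-eat-me and shedding genes 2 were higher and 1 lower, and 1 and 0 with the correction. Of these, Cd47 was higher (0.39, edgeR adjusted p = 0.0379) and its macrophage receptor Sirpa lower (-0.43, adjusted p = 0.0266), the latter lost with the correction (0.182). The Cd47 call was lost with library totals (0.05003), on the compared groups (0.0690) and in 4 fits without a library, those without WT chow replicate 1 (0.160) or 2 (0.106) and WT HFD replicate 1 (0.0793) or 3 (0.149). Adam17, the protease that sheds Mertk, just missed (-0.36, adjusted p = 0.0522).

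Of 14 other engulfment genes 1 was higher and 3 lower, or 28.6% called against 21.3% of all genes, and 0 and 1 with the correction. Rac1, the GTPase that Elmo1 and Dock1 act on, averaged 582 ± 14.2 CPM in WT chow and 597 ± 16.5 in WT HFD (0.04, edgeR adjusted p = 0.790). Was, an actin nucleation factor of blood cells, fell from 85.3 ± 6.90 to 49.0 ± 3.75 CPM (-0.80, adjusted p = 0.0135). Nptn (0.44, adjusted p = 0.0170) and Bsg (0.51, adjusted p = 0.0179), partners that bring Xkr-family scramblases to the membrane, were 2 of 7 scramblase and flippase genes called higher, with 1 lower.

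Among 13 genes of corpse digestion and lipid handling 3 were higher and 1 lower. Dnase2a, the lysosomal DNase, rose from 117 ± 19.4 to 195 ± 14.8 CPM (0.74, edgeR adjusted p = 0.0214), and Abca1, the cholesterol exporter, had 312 ± 141 and 528 ± 78.6 (0.76, adjusted p = 0.0438). The WT groups of Abca1 overlapped, and its call was lost with library totals (0.0646), on the compared groups (0.0735) and in all but 3 of 12 fits without a library, among them those without WT chow replicate 1 (0.155) or 3 (0.0768) and without each WT HFD replicate in turn (0.0773 to 0.120). Among 10 transcription factors linked to clearance genes 3 were higher and 2 lower. Nr1h3 (LXR alpha), known to drive Mertk and Abca1 expression, rose from 63.6 ± 4.30 to 96.0 ± 11.7 CPM (0.59, adjusted p = 0.0111). Its partner Rxra fell from 74.5 ± 13.8 to 39.6 ± 3.33 (-0.91, adjusted p = 0.00853) and Ppard from 11.3 ± 1.62 to 6.65 ± 0.196 (-0.77, adjusted p = 0.0123). The list of 7 find-me genes had 0 higher and 1 lower.

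**Figure D5:**
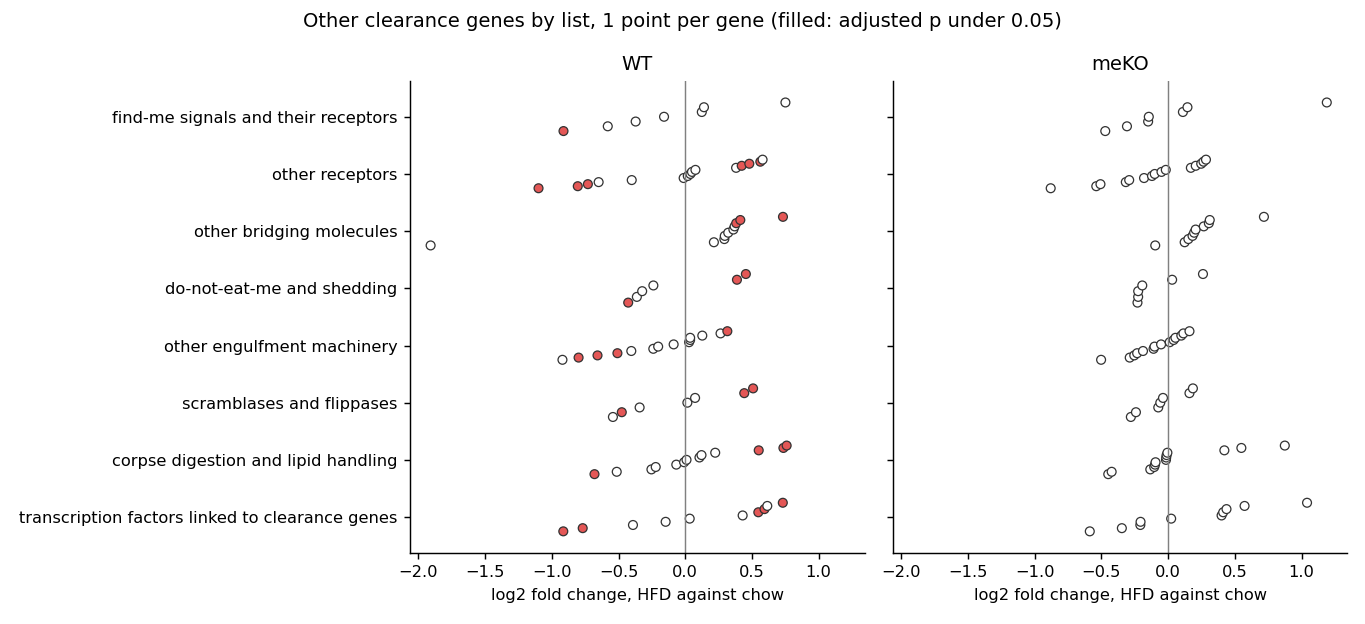
Diet log2 fold change, HFD against chow (x axes), of the measured genes of the 8 further clearance lists (y axis) in WT and in meKO. Points are genes, filled where the adjusted p was under 0.05. In WT, filled points go both ways in 6 of the 8 lists, 17 higher and 12 lower in all. In meKO 0 points are filled.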

How the data were processed

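The authors deposited whole-number counts per gene for 12 libraries, with Entrez identifiers and symbols; the submitters' processing notes name mm10 and DESeq2. The aligner, counter and strand setting are not given in the sources used here, and the labels name Trizol and TruSeq. Of the 12339 listed genes, 186 have no symbol. All count columns matched a sample title. Replicate pairs differed by far more than sampling noise (chi-square per degree of freedom at least 16.9).

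The test was that of edgeR 4.0.16 (R 4.3.3), with TMM factors, filterByExpr, robust dispersions and a quasi-likelihood F test on 4 group means over all 12 libraries, two-sided, with Benjamini-Hochberg adjustment over all genes and calls at 0.05. SE is the log2 fold change over the square root of F. An exact permutation test of 3 libraries against 3 cannot go below 0.1, so single genes rest on the shared model. Alternatives were other scaling, other filters, DESeq2 1.42.0, limma-voom (limma 3.58.1) with and without library quality weights, fits on the compared groups alone, a length and GC correction (splines with 5 degrees of freedom on the longest GENCODE transcript, known for 93.5% of genes) and leaving out each library. The fit without both WT chow replicates 1 and 2 was added after seeing the data. The scripts were tested on simulated data.

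The members, lists, tests and alternatives were chosen with earlier results of these data known. All measured members were named; from the lists, up to 5 called genes per direction with the smallest p and a mean of at least 1 CPM in each diet or genotype comparison, and the few always named: Timd4, Itgav, Itgb5, Rac1, Cd47, Sirpa, Adam17, C1qa, Nr1h3 and Abca1. Transcript lengths came from the annotation given, and promoters from RefSeq; 6 of the 9 promoters have their last 20 bases inside a transcript of the gene.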

Additional observations from a re-analysis of the deposited data

How the results depend on the processing

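No paired analysis was possible because the labels give no replicate numbers; those used here follow accession order. For single genes and comparisons, 97 values lost their call under an alternative and 56 gained it. Another 20 stayed uncalled but changed sign by more than an SE, and the other 2022 stayed on their side of the threshold, whatever their size. The low-count filter kept all 12339 genes. The alternative without it therefore repeats the main fit, and its values could only stay. A sign change was counted as a reversal only where a value was called, and 0 were. The cause of the changes was not tested.

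Counts of members called moved as follows. Genotype on chow went from 0 to 2 with DESeq2 and 5 with quality weights, and 0 to 4 over fits without a library. Diet in WT went from 4 to 0 without both WT chow replicates 1 and 2, and 0 to 5 over fits without a library. Diet in meKO went from 0 to 1 with DESeq2 and 1 with quality weights, and 0 to 1 without a library. The interaction went from 0 to 1 with quality weights and stayed at 0 without a library. Diet averaged over genotypes went from 5 to 1 without both, and 4 to 6 without a library. Genotype averaged over diets went from 0 to 6 with quality weights, and 0 to 4 without a library.

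Counts over all genes moved too. Genotype on chow (10) gave 2 with library totals, 591 with DESeq2, 2 with limma-voom, 4047 with quality weights, 5 on the compared groups, 4 with the length and GC correction and 3 without both, and 2 to 2543 without a library. Genotype on HFD (10) gave 53 with DESeq2, 5 with limma-voom, 128 with quality weights, 34 on the compared groups and 16 without both, and 3 to 16 without a library. Diet in WT (2634) gave 6411 with quality weights, 1613 with the correction and 15 without both, and 96 to 4921 without a library. Diet in meKO (13) gave 227 with DESeq2, 398 with quality weights, 1 on the compared groups and 44 with the correction, and 1 to 135 without a library. The interaction (2) gave 1 with at least 10 counts in every library, 15 with DESeq2, 295 with quality weights and 4 with the correction, and 1 to 56 without a library. Diet averaged (3721) gave 6298 with quality weights and 202 without both, and 1957 to 5326 without a library. Genotype averaged (21) gave 366 with DESeq2, 3835 with quality weights and 11 without both, and 8 to 1400 without a library.

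In WT, the Mertk call was lost on leaving out WT chow replicate 1 (adjusted p = 0.0982), WT chow replicate 2 (0.0761) and WT HFD replicate 3 (0.092), each in turn. Gas6 lost it likewise: WT chow replicates 1 (0.0589) and 2 (0.0968), WT HFD replicates 1 (0.0584) and 3 (0.0997). For Elmo1 this was so leaving out WT chow replicate 1 (0.0502) and, separately, WT HFD replicate 3 (0.059). Dock1 did so for WT chow replicates 1 (0.0888) and 2 (0.0662) and WT HFD replicates 1 (0.0536) and 3 (0.0761), all by edgeR. Xkr8, with 121 to 240 counts per library, had the fewest counts of the members.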
